A study of Mus musculus with 6 samples.

Results

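The lens lineage transcription factors examined here were 9 genes, Maf, Prox1, Sox1, Sox2, Pitx3, Foxe3, Tfap2a, Tfap2b and Eya1. They were chosen by symbol, and all 9 were found among the 27179 genes of the expression table. Whole-lens RNA was sequenced from B6/FVB mice on postnatal day 1. The tested lenses carried the label Gclc KO (KO 1 to KO 3) and the others the label Gclc CON (CON 1 to CON 3), with 3 libraries each. Gclc encodes the catalytic subunit of the ligase that makes the precursor of glutathione, and the study asked how its loss affects the lens just after birth. The labels gave neither the allele, a Cre driver, the genotype of the control animals nor the number of animals in a library, so the spread between libraries may be partly technical.

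In the mouse, the lens forms from surface ectoderm under the control of a small set of transcription factors. Sox2, Tfap2a and Eya1 act when the placode and vesicle form. Foxe3 and Pitx3 keep the anterior epithelium proliferating and undifferentiated. Maf, Prox1 and Sox1 act in the cells that elongate into fibres, where they drive crystallin genes and cell cycle exit. Loss of any one of Maf, Prox1, Sox1, Pitx3 or Foxe3 leads to small or malformed mouse lenses.

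The KO libraries held 45842484 to 61219009 reads in genes and the CON libraries 20361430 to 43384443. CON 2, the library with the fewest reads, carried a lane code in its column header that no other library had. The part of the lane in the CON 2 values was not tested. Crystallins, the main lens proteins, took 40.5% to 47.5% of the KO reads and 59.5% to 68.4% of the CON reads. Gclc, the check of the labels, had 17.9, 72.1 and 58.1 normalised reads in KO 1 to KO 3 and 178, 283 and 173 in CON 1 to CON 3. It passed the test as lower, with a log2 difference of -1.01 (SE 0.28) and a limma adjusted p of 0.0387. Of the marker lists of cells that a lens sample can hold, the fibre list had 9 of 10 genes lower and none higher. With library totals 5 fibre markers were lower. The fibre count was 7 without KO 1, KO 2 or CON 3, 8 without KO 3, 6 without CON 2 and 10 without CON 1. It was 7 without a filter or with the replicate block, and 6 with quantile normalisation. The epithelium list had 3 of 9 higher and 3 lower, but 1 higher and 1 lower without KO 2, and 1 higher and 2 lower without KO 1, KO 3 or CON 2. The macrophage list had 9 of 13 higher, with a summed level of 6373 to 19748 normalised reads in KO and 1813 to 2798 in CON. The macrophage count was 5 without CON 2, 6 without KO 1 or KO 2, 6 without a filter, 4 with voom on the size factors and 3 with voom on reads outside crystallins. Of 21 retina markers, 9 passed the filter and 2 were higher, among them Six6. Their sum was 8422 to 10698 in KO and 2720 to 4403 in CON, while Rcvrn, Pou4f2, Calb1 and Gad1 were at 0 in every CON library. Of the tested genes of the pigment cell list 1 of 8 was higher, but 0 without KO 1, KO 2 or CON 2 and 2 without KO 3. Of the cornea list 1 of 2 was higher, with Krt14, Krt12, Krt13 and Trp63 at 0 in every CON library. In KO, Krt14 and Krt12 had reads in KO 1 alone (74.9 and 10.4 normalised reads). Krt13 had them in KO 2 alone (1.2) and Trp63 in KO 3 alone (10.6). Outside crystallins the KO libraries held 27266327 to 32663048 reads and the CON libraries 6440487 to 17564871. The part of this depth in the CON values of 0, here and among the retina markers, was not tested. The endothelium list (9 tested) and the mesenchyme list (2 tested) had no call, and all 8 muscle markers were under the filter.

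Normalised reads in what follows are whole reads recovered from the authors' values and divided by the size factor of the library. Each log2 difference is KO minus CON on the authors' scale, which shrinks the differences of genes with few reads. A gene was tested if its mean lay at least 1 unit above the value of a gene without reads. A gene was called at a limma adjusted p under 0.05 over the 11468 genes tested. Of these, 4.39% were called lower and 6.91% higher. 8 of the 9 members were tested. Foxe3 was not, as its mean lay 0.85 units above the lowest value. Maf was lower, no member was higher, and the other 7 were not called, so the count of 1 is not read as a share above the background. 7 of the 8 differences were below 0, as were 47.5% of all tested differences, and their median was -0.42, beside 0.03 over all tested genes. In 3 members (Maf, Sox1 and Pitx3) every KO value lay below every CON value, as in 14.1% of the tested genes.

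**Figure D1:**
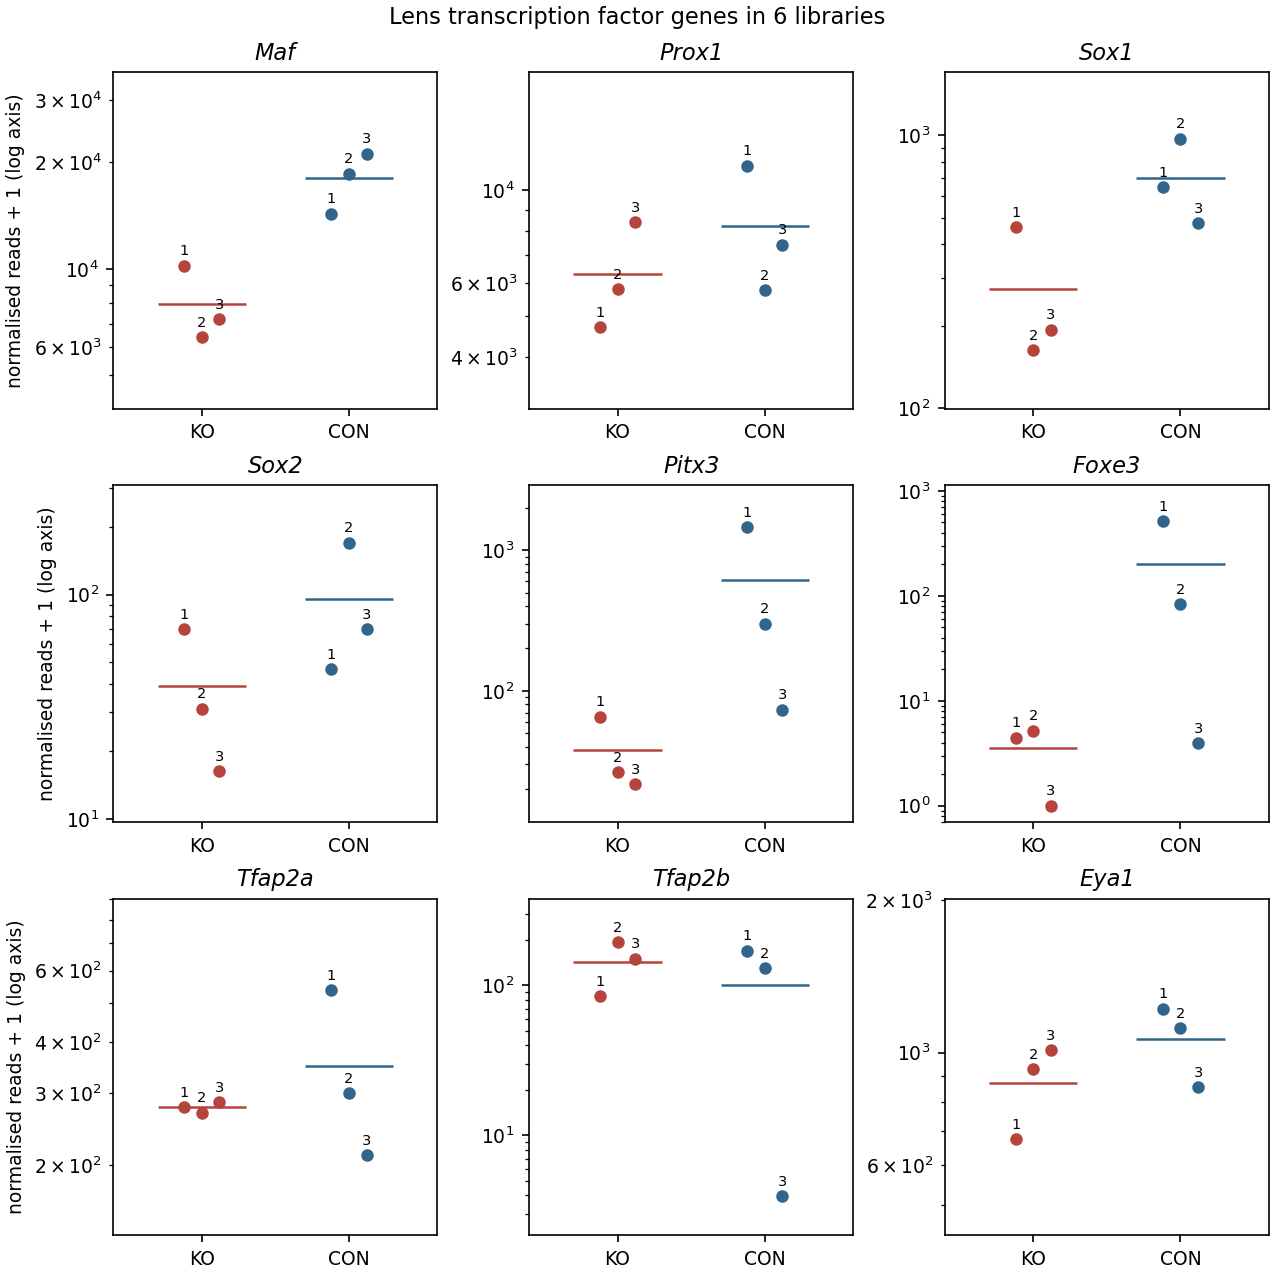
Normalised reads plus 1 of the 9 genes in each library, 1 panel per gene, with KO points left of CON points, the library number beside each point and the group mean as a line. The axis is logarithmic, and the 3 CON libraries spread far more for Pitx3 and Foxe3 (CON 1 highest, CON 3 lowest) than for Maf.

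Maf encodes the large MAF protein of fibre cells, a basic leucine zipper factor that activates crystallin genes. It had 10193, 6408 and 7210.4 normalised reads in KO 1, KO 2 and KO 3, against 14313, 18536 and 21133 in CON 1, CON 2 and CON 3. Every KO lens library lay under the lowest CON library. The mean was 7937 ± 1994 in KO and 17994 ± 3442 in CON (SD, n = 3 each), so that KO held 44.1% of the CON level. The log2 difference was -1.17 (SE 0.23, 95% interval -1.68 to -0.66), and Maf fell at a limma adjusted p of 0.00856. The call was lost without KO 2, at a difference of -1.04 and an adjusted p of 0.0527. As a share of all reads in genes, Maf stood at 295, 232.5 and 223 CPM in KO and 312.5, 289 and 339 in CON. On that scale KO 1 lay above CON 2, and the difference was -0.34 with a limma adjusted p of 0.104, where the median of all genes lay at 0.86. In bulk RNA, fewer cells of a type and less RNA per cell cannot be told apart.

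Prox1, a homeodomain factor needed for fibre elongation, was the second most abundant member. It had 4709.9, 5805 and 8383 normalised reads in KO and 11457, 5778 and 7418 in CON. The groups overlapped, with KO 3 above both CON 2 and CON 3. The log2 difference was -0.36 (95% interval -0.97 to 0.26, limma adjusted p 0.459), an interval that lies on both sides of 0. It was -0.09 without CON 1, -0.17 without KO 1 and -0.58 without KO 3 or CON 2, never called.

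Sox1, an HMG-box factor that binds gamma-crystallin promoters in the mouse, had 459.6, 162 and 193 normalised reads in KO. In CON it had 645, 972.5 and 474.9. All KO values lay below all CON values, although KO 1 came close to CON 3. The log2 difference was -1.03 (SE 0.32, 95% interval -1.74 to -0.33), and Sox1 missed the threshold with a limma adjusted p of 0.0617. It passed without KO 1, at a difference of -1.34 and an adjusted p of 0.0309. With each other library left out it did not pass, the difference lying between -0.81 (without CON 2, adjusted p 0.189) and -1.23 (without CON 3, adjusted p 0.0501). With total reads it was -0.53 (adjusted p 0.35).

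The Sox1 gene lies within the span of Sox1ot, a long non-coding transcript of the same strand whose exons share no base with it. Sox1ot had 35.1, 31.3 and 78.2 normalised reads in KO, against 461, 661 and 531 in CON. The highest KO library stood far below the lowest CON library. The level in KO was 8.75% of that in CON, and the log2 difference was -1.98 (SE 0.26, limma adjusted p 0.00103). The call held with each library left out in turn, at an adjusted p of at most 0.00682. Whether Sox1ot and Sox1 differed by unequal amounts was not tested.

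Sox2, the SOX factor of the early placode, had few reads. The values were 69.1, 30.1 and 15.3 normalised reads in KO and 45.4, 169.9 and 69.3 in CON. KO 1 lay above CON 1, and the log2 difference was -0.48 (95% interval -1.15 to 0.19, limma adjusted p 0.351), or -0.24 without CON 2 and -0.66 without CON 1. Its same-strand overlapping transcript Sox2ot had 489, 873 and 885 normalised reads in KO and 1313, 1177 and 5249 in CON. The groups did not overlap, but the log2 difference of -1.3 (SE 0.45) was not called, at a limma adjusted p of 0.0863, and CON 3 stood well above the other CON libraries.

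Pitx3, a paired-type homeodomain factor of the lens epithelium, and Foxe3, a forkhead factor of the same cells, had the widest range within CON among the members on the authors' log2 scale. As a ratio of the highest to the lowest CON library in normalised reads, Foxe3 led with 174, ahead of Tfap2b with 57.25 and Pitx3 with 20.2. Pitx3 had 64.5, 25.25 and 20.6 normalised reads in KO 1, KO 2 and KO 3, against 1462, 299 and 72.3 in CON 1, CON 2 and CON 3. Every KO library lay below every CON library, and KO 1 stood nearer to CON 3 than to KO 2 or KO 3. The mean was 36.8 ± 24.1 in KO and 611 ± 746 in CON (SD, n = 3 each). The log2 difference was -1.72 (SE 0.56, 95% interval -2.95 to -0.49), not called at a limma adjusted p of 0.0731. With CON 3 left out the difference was -2.39 (adjusted p 0.0131), and with CON 1 left out it was -0.93 (adjusted p 0.108).

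Foxe3 had 3.46, 4.21 and 0 normalised reads in KO, against 514, 81.8 and 2.95 in CON 1, CON 2 and CON 3. These values rested on 6, 7 and 0 reads in KO and on 487, 26 and 2 reads in CON. CON 3 therefore lay within the KO range, and CON 1 alone held most of the reads of the gene. An exact two-sided permutation test of the group means gave p = 0.3, where 3 against 3 libraries cannot go below 0.1. Where genes of every level were fitted, the log2 difference was -1.3 (SE 0.54) with a limma adjusted p of 0.206.

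Few genes varied as much within CON. From CON 1 to CON 3 the log2 values of Pitx3 spanned 2.93, a range that only 6 tested genes exceeded, and those of Foxe3 spanned 2.65, which 13 exceeded. In both genes the order was CON 1, CON 2, CON 3 from high to low. Tfap2a, Tfap2b and Eya1 had the same order, which 19.1% of the tested genes shared. Maf had the opposite order, so the CON libraries did not rank alike over the members.

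The annotated Foxe3 transcript is 73.1% G and C, beside at most 70.7% in a tested gene. Its 867 bases are all coding, so a coding value is set beside whole transcripts. That of Pitx3 is 68.3%, above 99.9% of tested genes, and its coding part is 68.8%. Sox1 has 56.9%, and the other 6 members 45.3% to 50.5%. Over 11150 tested genes with a sequence, put in 5 bins by GC, the median log2 difference CON 1 minus CON 3 was -0.21 in the bin of lowest GC and 0.29 in that of highest GC. The median KO minus CON difference was 0.10 in the lowest bin and -0.04 in the highest. In the 500 genes of highest GC, CON 1 minus CON 3 had a median of 0.42 and KO minus CON one of -0.16. On the same measure Pitx3 stood at 2.93 and Foxe3 at 2.65. With the GC trend removed from the table, the Pitx3 difference was -1.32 (limma adjusted p 0.103). Over the same 11150 genes, Spearman's rho with CON 1 minus CON 3 was 0.23 for GC and 0.27 for transcript length. With KO minus CON it was -0.1 for GC and 0.16 for length. The Pitx3 and Foxe3 transcripts hold 1380 and 867 bases. The part of base composition and of transcript length in the Pitx3 and Foxe3 values was not tested.

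**Figure D2:**
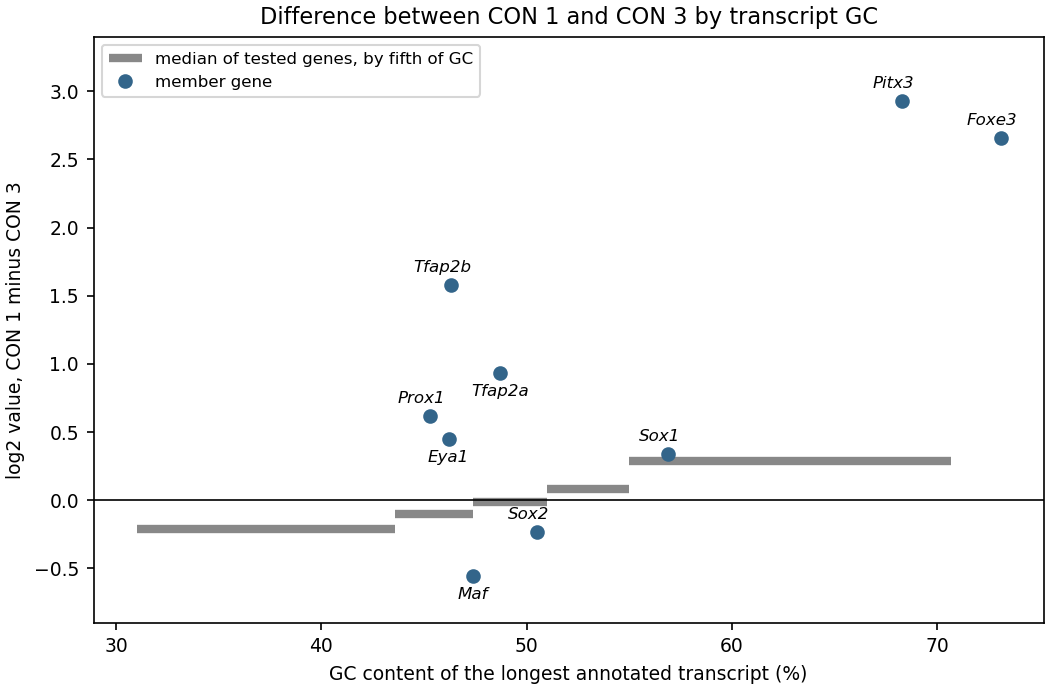
GC content of the longest annotated transcript (percent, horizontal) against the log2 difference CON 1 minus CON 3 (vertical), with the 9 members as points and the median of the tested genes in each of 5 GC bins as grey bars. Pitx3 (2.93) and Foxe3 (2.65) lie at the upper right, far above the bar of the highest bin (0.29), while Maf (-0.56) lies below 0.

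For a view of the sequence behind these values, the 120 coding bases of highest GC are shown for Foxe3 and Pitx3, from GENCODE M21 transcripts and their longest open reading frame. Capitals mark runs of 8 or more G or C. The stretches hold 81.7% G and C in Foxe3 (coding bases 459 to 578) and 80.0% in Pitx3 (594 to 713).
Foxe3: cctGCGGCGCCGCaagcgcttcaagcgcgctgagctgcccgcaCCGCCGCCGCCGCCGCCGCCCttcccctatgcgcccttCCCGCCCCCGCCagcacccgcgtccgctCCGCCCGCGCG
Pitx3: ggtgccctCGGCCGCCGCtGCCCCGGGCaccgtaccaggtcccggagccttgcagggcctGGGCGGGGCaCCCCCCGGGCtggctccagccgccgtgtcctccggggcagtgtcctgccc

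The promoters of the same pair are shown because both genes had the same wide order over the CON libraries. They come from RefSeq on build GRCm38.p6, from 250 bases before the annotated start to 50 after it, and are printed 5′ to 3′ on the strand of the gene. Foxe3 lies at chr4:114926018-114926317 and Pitx3 at chr19:46148276-46148575, both on the minus strand. Capitals mark matches on either strand to the letters searched: TGCTGA (the MAF core), TAATCC (PITX), GCCNNNGGC (AP-2), AACAAT (SOX), TGTTTAC (forkhead) and TAAT (homeodomain). TAATCC holds the letters of TAAT, so the pair of searches can overlap.
Foxe3: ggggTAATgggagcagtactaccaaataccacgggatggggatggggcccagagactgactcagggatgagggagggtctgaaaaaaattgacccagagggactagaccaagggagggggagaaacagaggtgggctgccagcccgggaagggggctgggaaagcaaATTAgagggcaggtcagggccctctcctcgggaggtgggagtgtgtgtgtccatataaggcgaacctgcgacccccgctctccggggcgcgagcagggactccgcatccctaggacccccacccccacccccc
Pitx3: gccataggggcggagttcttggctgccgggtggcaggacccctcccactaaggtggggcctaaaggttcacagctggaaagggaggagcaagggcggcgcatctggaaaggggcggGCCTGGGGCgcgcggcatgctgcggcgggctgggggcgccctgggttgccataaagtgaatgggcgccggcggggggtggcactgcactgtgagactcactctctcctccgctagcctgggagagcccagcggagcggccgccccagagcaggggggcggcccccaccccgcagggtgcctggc

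The Foxe3 promoter holds TAAT at positions -246 and -83, the second on the opposite strand as ATTA. The Pitx3 promoter holds an AP-2 match at position -134. TAAT is common, with a match in 58% of 32851 promoters, and GCCNNNGGC occurs in 16.6%. Of the 9 promoters of 7 members in the table, 6 held the homeodomain letters and 1 (that of Sox2) the MAF core, found in 19.5% of all promoters. None held the PITX, SOX or forkhead letters, found in 7.06%, 10.7% and 3.65% of all promoters. Such matches describe letters only. Maf and Eya1 had no entry.

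Pitx3 also shares 10 exon bases with Elovl3, a fatty acid elongase gene on the opposite strand. Elovl3 had 74.9, 61.9 and 53.9 normalised reads in KO and 245, 154 and 162 in CON. The groups stood apart, with a log2 difference of -0.74 (SE 0.26) that was not called at a limma adjusted p of 0.0864. Elovl3 did not show the wide spread of Pitx3 over CON 1 to CON 3. Of all 50-base stretches, 10.2% in Tfap2a and 4.64% in Maf were shared with another gene, and at most 1% in any other member. The sources do not state whether reads were counted by strand, so antisense reads cannot be told apart for Maf, Prox1 and Tfap2a.

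The AP-2 factors and Eya1 overlapped between the groups. Tfap2a, an AP-2 factor of the placode and lens epithelium, had 276, 268 and 284 normalised reads in KO and 536, 299 and 211 in CON. Its KO values were nearly equal, spanning 0.06 log2 units, a span that only 1.5% of tested genes fell under. The CON values lay on both sides of them, and the log2 difference was -0.17 (95% interval -0.79 to 0.45, limma adjusted p 0.751). Without CON 1 the difference was 0.09, so CON 1 set its sign.

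Tfap2b, the related AP-2 gene, had 83.5, 194 and 149.6 normalised reads in KO and 169, 129 and 2.95 in CON. CON 3, with 2 reads, stood apart from all other libraries, in which the groups mixed. The log2 difference was 0.43 (95% interval -0.43 to 1.3, limma adjusted p 0.534), and without CON 3 it was -0.06. Eya1, a phosphatase and transcriptional partner of homeodomain proteins, had 674, 926 and 1011 normalised reads in KO and 1219, 1117 and 852.5 in CON. KO 2 and KO 3 lay above CON 3, and the log2 difference was -0.25 (95% interval -0.77 to 0.27, limma adjusted p 0.555). It was -0.10 without KO 1, -0.16 without CON 1 and -0.38 without CON 3.

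**Figure D3:**
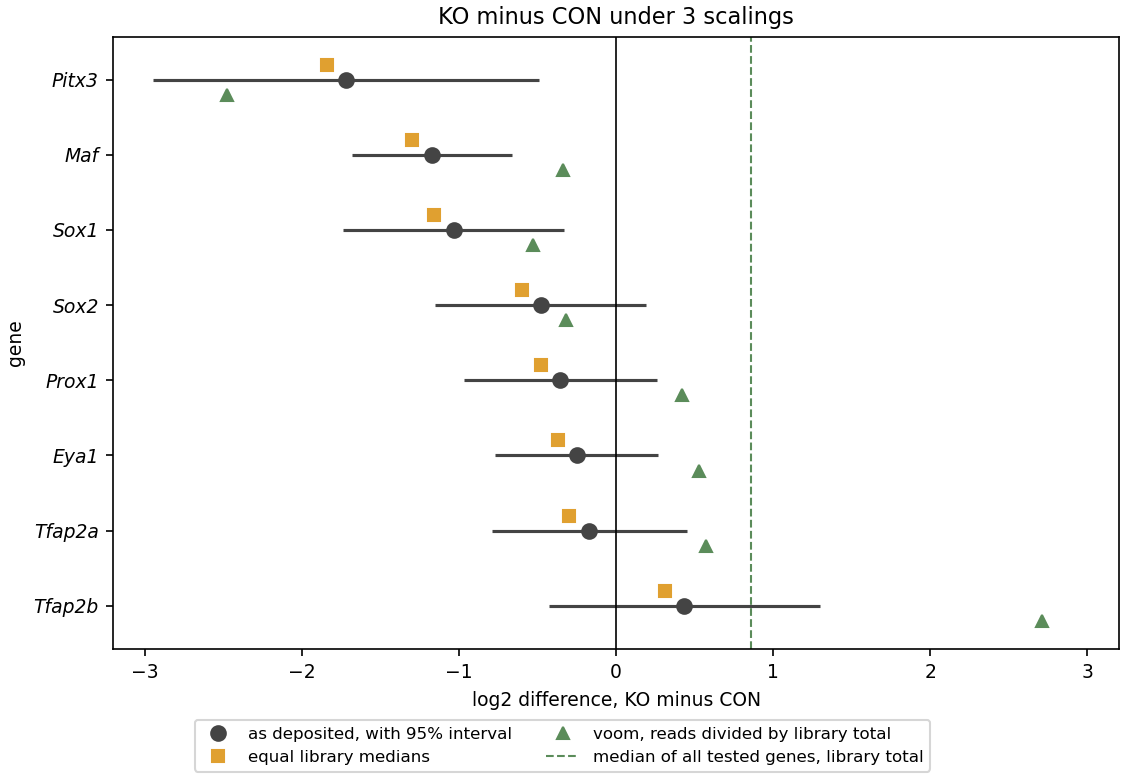
Log2 difference KO minus CON (horizontal) for the 8 tested genes (vertical), as deposited with 95% intervals (circles), with equal library medians (squares) and scaled by library totals with voom (triangles); the dashed line marks the median of all tested genes for the triangles, 0.86. Prox1, Eya1 and Tfap2a lie below 0 as deposited and above 0, yet under that median, with library totals. The intervals of Maf, Sox1 and Pitx3 stay below 0, and of these genes only Maf was called.

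Levels between genes were compared as normalised reads per kilobase of exon. Maf led in both groups, with 963 in KO and 2183.5 in CON, followed by Prox1 with 751 in KO and 979 in CON. In KO the order went on with Eya1 at 112, Tfap2a at 56.4, Sox1 at 56.2, Pitx3 at 24.1, Tfap2b at 22.4, Sox2 at 18.6 and Foxe3 at 2.95. The KO ranges of neighbours in this order stood apart for Prox1 and Eya1, Eya1 and Tfap2a, and Sox2 and Foxe3, and overlapped for the rest. In CON the order after Prox1 was Pitx3 at 400.5, Foxe3 at 230.2, Sox1 at 144, Eya1 at 136, Tfap2a at 71.1, Sox2 at 46.1 and Tfap2b at 15.8. There Maf and Prox1 alone had ranges that stood apart, and the places of Pitx3 and Foxe3 rest on CON 1. The exon length used for Foxe3, 867 bases, is coding only, so its level per kilobase may be too high.

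The genes closest in pattern to each member were those with the smallest root mean square distance between log2 values centred over the 6 libraries. The pool was 10783 tested protein-coding genes with a symbol (10784 for Foxe3), without predicted, RIKEN and pseudogene names. For Maf they were Metrnl (0.081), Tpm2 (0.081) and Tbc1d7 (0.085), each called lower. For Sox1 they were Jag1 (0.172), Phgdh (0.182) and Ybx1 (0.196), of which Phgdh and Ybx1 were called lower. For Pitx3 they were Rnf187 (0.225), Marcksl1 (0.241) and Scand1 (0.248), of which Rnf187 and Scand1 were called lower. Scand1 shared the spread over CON, with 23.04, 25.9 and 11.6 normalised reads in KO and 1269.9, 349 and 115 in CON 1 to CON 3, and its transcript is 68.4% G and C. For Foxe3 they were Nsun2 (0.213), H1f0 (0.221) and Eif3f (0.230), none called, with transcripts of 48.9% to 52.1% G and C. For the uncalled members they were Zfp523, Tlcd5 and Pms2 (Prox1), Lsm6, Cenpm and Ten1 (Sox2), C2cd2, Fam53c and Thra (Tfap2a), Fabp7, Csnk1a1 and Men1 (Tfap2b), and Scamp4, Ndel1 and Ndn (Eya1), none of them called. These are the nearest of many genes over 6 libraries, and the closeness is a description. The distance includes the KO minus CON difference, so calls like those of the member follow from the choice and add no support.

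Among 17 family relatives of the members, 5 were tested, 1 was higher and none was lower. The one was Maff, a small MAF protein that lacks an activation domain, with 162, 265 and 327 normalised reads in KO and 63.3, 40.9 and 4.43 in CON. It rose by a log2 difference of 1.35 (SE 0.31, limma adjusted p 0.0158), opposite in sign to Maf, and lost the call without KO 2 and without KO 3. It was not called either with voom on the size factors (adjusted p 0.128), with voom on reads outside crystallins (0.127) or on log2 of normalised reads plus 1 (0.0595). Of 6 partners of Eya1, 3 were tested and Dach1, a nuclear cofactor that acts with Eya proteins, was higher. Dach1 had 821, 612 and 543 normalised reads in KO and 168, 189 and 286 in CON. Its log2 difference was 1.15 (SE 0.26, limma adjusted p 0.0145), and the call was lost without KO 1 and without KO 2.

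Of 21 other regulators of lens development, all tested, 6 were higher, 4 lower and 11 not called, with a median log2 difference of 0.45. Sox11, a SOX factor of lens and neural progenitors, averaged 2293 ± 371 normalised reads in KO and 925 ± 221 in CON (SD, n = 3 each), at a log2 difference of 1.18 with a limma adjusted p of 0.00791. Meis1, Pax6 and Lhx2, homeodomain factors of early eye development, rose by 0.95, 0.92 and 1.02. Hsf4, the heat shock factor of lens fibres, averaged 6524.2 ± 975.0 in KO and 14459.6 ± 891 in CON (SD, n = 3 each), at a log2 difference of -1.13 with a limma adjusted p of 0.004. Celf1, Rbm24 and Tdrd7, RNA-binding proteins of the lens, fell by 1.09, 0.94 and 0.95. In all, 1 was higher and 1 lower without KO 2, 1 and 2 without KO 3, and 4 and 2 without KO 1. With the replicate block 2 were higher and 2 lower, and Pax6, Meis1, Lhx2, Rbm24 and Tdrd7 were not called. With library totals 9 were higher and 0 lower. The calls of Sox11 and Hsf4 held with each library left out. Celf1 lost its call without KO 1 or KO 2, Meis1 without KO 2 or KO 3, Lhx2 without any one KO library, Rbm24 without KO 2, KO 3 or CON 2, Pax6 without any one KO library or CON 2, and Tdrd7 without any one KO library or CON 3. Hsf4, Celf1, Rbm24 and Tdrd7 were among those not called with library totals, and Tdrd7 was not called without a filter, with quantile normalisation or with reads outside crystallins. The summed retina and macrophage markers given above were also higher in KO, and their part in the rise of Pax6, Lhx2, Meis1, Sox11, Maff and Dach1 was not tested.

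The 19 genes that the members are known to regulate in the mouse lens were all tested. Of these, 10 were lower, none higher and 9 not called, where 4.39% of all tested genes were called lower. The list holds the crystallin genes Cryaa, Cryab, Crybb1, Crybb2, Cryba1 and Crygb to Crygf. Among them Cryaa, Crybb1, Cryba1, Crygd and Crygf were called lower. Cryaa, Cryba1 and Crygd lost the call without any one KO library, CON 2 or CON 3. Crybb1 lost it without KO 2, KO 3, CON 2 or CON 3. None of these genes but Crygf kept the call without a filter or with the replicate block. Over the 19 genes the median log2 difference was -1.27, beside 0.03 over all genes. In 15 of the 19 every KO value lay below every CON value, as in 14.1% of the tested genes. Mip, the main water channel of fibres, had 64239.5, 49253 and 59712 normalised reads in KO and 222688, 192854 and 182282 in CON. Its log2 difference was -1.79 (SE 0.22, limma adjusted p 0.000656), and its call held with library totals and with each library left out. Pdgfra, the growth factor receptor that Foxe3 sustains in the epithelium, had 175, 178.5 and 213 in KO and 952, 789.9 and 531 in CON, a difference of -1.40 (limma adjusted p 0.00616). Cdkn1c, a cell cycle inhibitor that Prox1 sustains, had 2927, 1294 and 1946 in KO and 6246, 7999.9 and 4558 in CON, a difference of -1.56 (limma adjusted p 0.00649). Crygf, a gamma-crystallin gene whose reads may be split with its close copies, had 198364, 137609.9 and 190629 in KO and 359375, 574223 and 506079 in CON, a difference of -1.44 (limma adjusted p 0.00708). Pdgfra, Cdkn1c and Crygf kept their calls with each library left out, and Pdgfra and Cdkn1c lost them with library totals. Mip is also 1 of the 9 fibre markers that were lower, and the part of the crystallin share and of the fibre markers in these counts was not tested. With quantile normalisation, 6 of the 19 were lower and 2 higher, with a median of 0.00. That method gives genes of equal rank the same value in every library, and it put Cryaa, Cryba1 and Crybb1 at a difference of 0. Its median therefore cannot show whether the most abundant genes fell. With library totals 5 of the 19 were lower and 2 higher, with a median of -0.51. With 1 library left out, 5 were lower without KO 2, 6 each without KO 3, CON 2 or CON 3, 7 without KO 1 and 14 without CON 1, and none was higher. Without a filter, and likewise with the replicate block, 6 were lower.

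**Figure D4:**
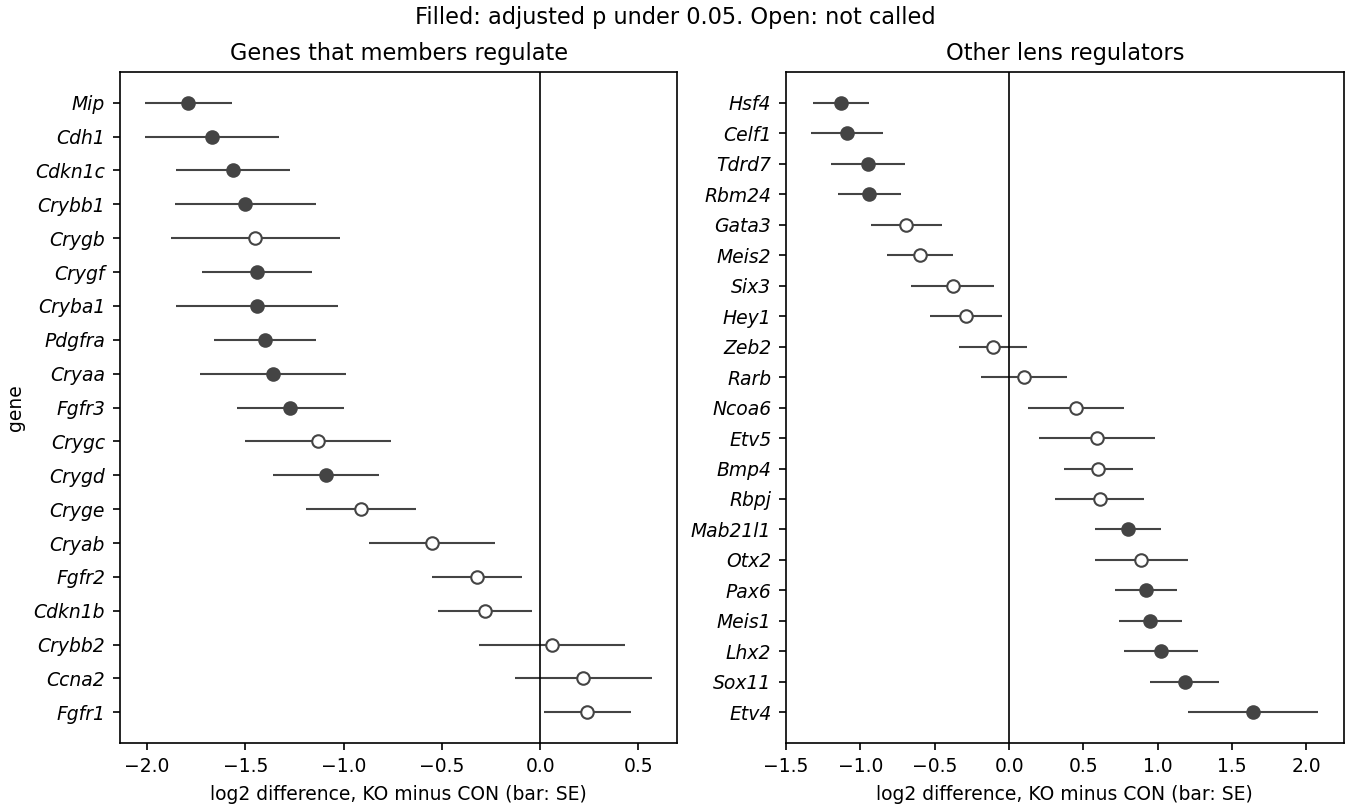
Log2 difference KO minus CON (horizontal, bars show the SE) of the 19 regulated genes (left panel) and the 21 other regulators (right panel), 1 gene per line, with called genes filled and uncalled genes open. The regulated genes lie mostly below 0 (median -1.27) and the other regulators on both sides (median 0.45).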

How the data were processed

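RNA of P1 mouse lenses was sequenced in 3 KO and 3 CON libraries. Per the submitters' processing notes, Trimmomatic, HISAT2 2.1.0, featureCounts 1.6.4, DESeq2 (given as 2.11.0.6) and build mm9 were used. The authors deposited 1 table of log2 values after a variance-stabilising transformation, in which a gene without reads has 6.504.

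The transformation was inverted to reads, all within 0.1 of whole numbers, and these were divided by the recovered size factors. Reads carry no molecular identifiers. The groups were compared on the deposited log2 values (limma 3.58.1, R 4.3.3, lmFit and eBayes with trend, no covariate), and p-values were adjusted by Benjamini-Hochberg over all 11468 genes tested. The fit and the inversion were tested on simulated data. Symbols came from RefSeq, which matched 25275 identifiers. Transcript lengths and GC came from GENCODE M21 (GRCm38), and no coordinates were carried between builds.

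The members and lists were chosen with earlier results of these data known. Named besides the members were the 3 genes nearest in pattern to each, genes overlapping one, and up to 4 called genes per direction by smallest p in 4 lists (relatives, Eya1 partners, other regulators, regulated genes). Crystallin genes among the regulated genes and single marker genes are named where a count called for them. Marker lists cover epithelium, fibres, retina, pigment cells, cornea, mesenchyme, endothelium, macrophages and muscle, and a few of their genes are not reported here. Alternatives were other filters, scalings, variance models, a replicate block and each library left out; removal of a GC trend was added after the data were seen. The labels did not say that equal replicate numbers pair the libraries.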

Additional observations from a re-analysis of the deposited data

How the results depend on the processing

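The number of genes called was 1297 (793 higher, 504 lower) in the reported fit. It was 802 with a filter of 3 units (340 higher, 462 lower), 863 with voom on reads outside crystallins (571 higher, 292 lower, median difference 0.23), 3399 with voom on total reads (3314 higher, 85 lower, median 0.86) and 2152 with library weights. The split also turned to 643 higher and 717 lower with equal medians, and to 421 and 472 with voom on the size factors. Without 1 library at a time 533 (without KO 2) to 1943 (without CON 1) genes were called. Of the 8 tested members, 1 was called in the reported fit, 3 each with equal medians, quantile normalisation and library weights (Maf, Sox1 and Pitx3), none (0) with total reads, and 0 to 2 without 1 library.

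With total reads the differences of Prox1, Tfap2a and Eya1 were 0.42, 0.57 and 0.53, against a median of 0.86. Without 1 library at a time, that of Tfap2a was -0.38 to 0.09 and that of Tfap2b -0.06 to 0.73. The cause was not tested. The replicate block gave 914 calls and 2 called members, Maf and Pitx3 (limma adjusted p 0.0161), but the labels state no pairing. Residuals of equal numbers correlated at -0.364, -0.128 and -0.14, and those of unequal numbers at -0.228 to 0.329. With 3 libraries per group, each centred on its group mean, these values cannot show whether libraries share an origin. Few reads limit the precision of Foxe3 and Tfap2b, each with 2 reads in CON 3, a library of 42313567 reads in genes.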
